A study of Mus musculus with 10 samples.

Results

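Eosinophils, basophils and mast cells are granule-bearing leukocytes, and 10 genes that mark them were followed here across the knee cartilage libraries of individual mice. Prg2, Prg3, Epx, Il5ra and Siglecf are known from eosinophils, Mcpt8 and Prss34 from basophils, and Cpa3, Ms4a2 and Fcer1a from basophils and mast cells together. The genes were taken by symbol, with the abundance of all transcripts of a gene added up, and make up 10 of the 35705 genes in the data and 10 of the 13841 genes that were tested because their mean reached 1 TPM. TPM is the abundance of a transcript after allowing for its length, scaled so that each library sums to 1000000, so it can be compared between genes.

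The study compared 5 wild-type control mice with 5 mice that were null for Mir324, the gene of the microRNA miR-324, in a project on bone. Cartilage caps from the medial side of the knee gave 1 library per mouse, and the labels list no treatment. They give the tissue as articular cartilage and the cell type as chondrocyte, and they give no age, sex, strain, litter or sequencing batch. How the null allele was made and whether control mice were littermates were not given in the sources used here, and Mir324 itself was not analysed here, so these values do not check the genotype labels.

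Eosinophils and basophils arise in the bone marrow from granulocyte progenitors and circulate in the blood, whereas mast cells mature in the tissues they settle in. Interleukin 5 drives eosinophil production through its receptor, and the granules of the mature cell carry very basic, toxic proteins. Basophils and mast cells bind IgE through a high-affinity receptor, and its crosslinking releases proteases, histamine and cytokines. In the marrow that lies under the joint cartilage, eosinophil and basophil precursors are making these granule proteins while they mature.

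The libraries held transcripts of marrow cells beside those of cartilage and bone. The 9 chondrocyte markers together took 0.161% to 0.605% of all TPM, against 5.65% to 11.6% for 8 neutrophil genes and 7.52% to 17.6% for 6 erythroid genes. Most of the chondrocyte sum was Prg4, with a mean of 2320 TPM where the next, Comp, had 241.7 TPM. The 8 osteoblast and osteocyte genes took 0.366% to 1.47%. Between 13386 and 14299 genes reached 1 TPM in a library, and the read depth of these TPM values is unknown. Wild-type mouse 1 stood apart from the rest, at -54.8 on the first principal component of all genes tested (26.7% of the variance) where the other 9 mice lay between -12.1 and 30.1. Several results that rest on it are therefore given with and without it. No gene differed between genotypes at an adjusted p under 0.05 in limma (0% of those tested), 1603 did at an unadjusted p under 0.05 (11.6%), and 592 of these were higher in the null mice (4.28%). The other 1011 were lower. The direction of that split moved with the scaling, since 916 were higher and 857 lower with median ratio scaling, 884 and 929 with quantile normalization, and 1228 and 590 after rescaling without the haemoglobin genes. In bulk tissue, fewer cells of a type and less RNA per cell cannot be told apart.

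All 10 genes were measured in every mouse, over a range of levels that spanned the transcriptome. Prg2 was the most abundant by far, with a mean of 1411 TPM that exceeded the mean of 99.4% of the genes tested. Epx followed with a mean of 92.8 TPM, Prss34 with 74.8, Mcpt8 with 71.7 and Prg3 with 64.5, and the ranges of these 4 genes over the mice overlapped. Cpa3 averaged 17.5 TPM, Ms4a2 8.30, Fcer1a 8.15 and Siglecf 5.77, with overlapping ranges between neighbours in that order, and Il5ra averaged 1.67 TPM. The lowest Prg2 value (594.5 TPM) lay above the highest Epx value, the lowest Prg3 value (28.82 TPM) above the highest Cpa3 value, and the lowest Siglecf value (4.07 TPM) above the highest Il5ra value. Together the 10 genes took 0.0784% to 0.326% of all TPM in a library.

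**Figure D1:**
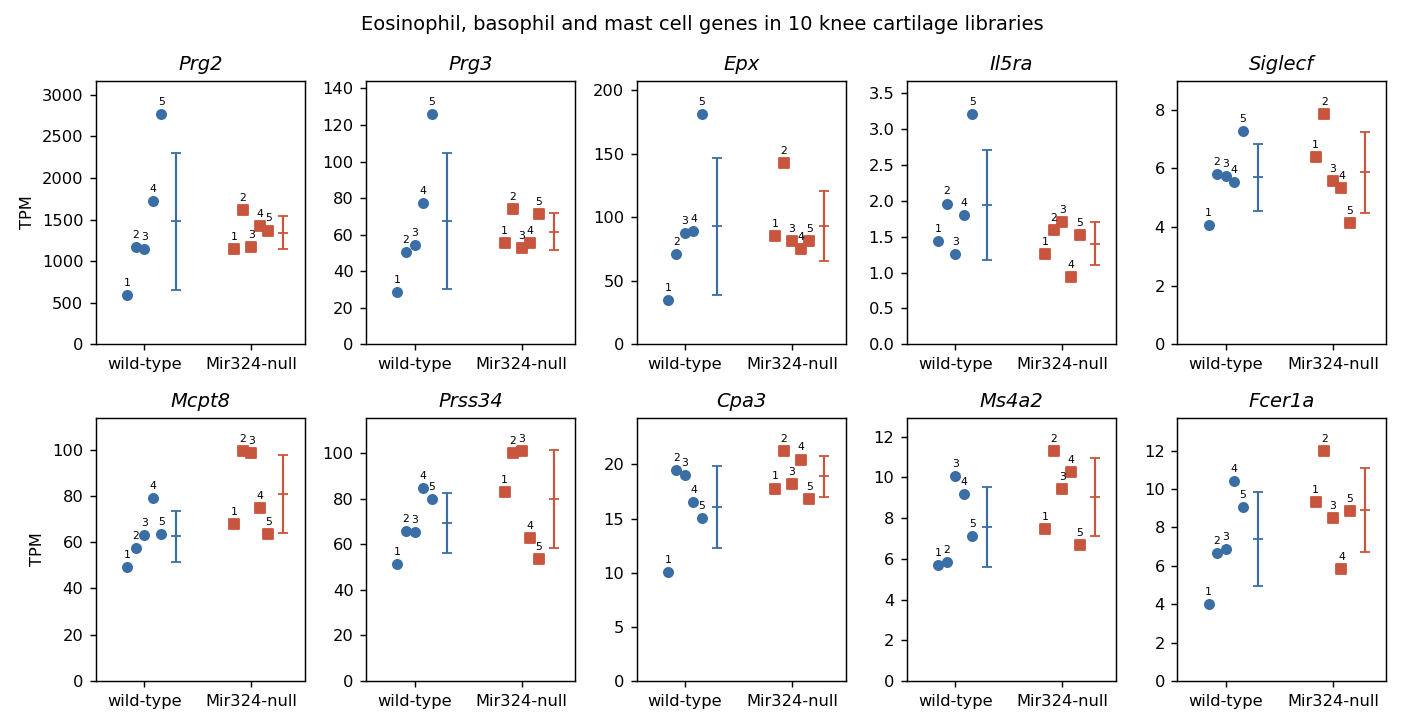
TPM of each of the 10 genes in each mouse, with wild-type mice as blue circles and Mir324-null mice as red squares numbered by replicate, and the group mean with 1 SD beside the points. The wild-type Prg2 values run from 594.5 to 2772 TPM and enclose all 5 null values, which run from 1149 to 1612 TPM.

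In the GRCm38 annotation all 10 are protein-coding genes. The eosinophil granule genes are Prg2 (ENSMUSG00000027073) on chromosome 2 from 84980461 to 84983632, plus strand, Prg3 (ENSMUSG00000027072) on chromosome 2 from 84988215 to 84993886, plus strand and Epx (ENSMUSG00000052234) on chromosome 11 from 87864000 to 87875536, minus strand. Of the eosinophil receptors, Il5ra (ENSMUSG00000005364) lies on chromosome 6 from 106710357 to 106749037, minus strand, and Siglecf (ENSMUSG00000039013) lies on chromosome 7 from 43351341 to 43359531, plus strand. The basophil proteases are Mcpt8 (ENSMUSG00000022157) on chromosome 14 from 56082166 to 56085273, minus strand and Prss34 (ENSMUSG00000056399) on chromosome 17 from 25298394 to 25300165, plus strand. The shared genes are Cpa3 (ENSMUSG00000001865) on chromosome 3 from 20215620 to 20242181, minus strand, Ms4a2 (ENSMUSG00000024680) on chromosome 19 from 11615523 to 11623719, minus strand and Fcer1a (ENSMUSG00000005339) on chromosome 1 from 173221284 to 173227214, minus strand. Prg2 and Prg3 are the only pair of the 10 on 1 chromosome.

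Prg2 encodes the major basic protein of the eosinophil granule. Its 5 wild-type values were 594.5, 1166, 1143, 1721 and 2772 TPM in mice 1 to 5, and the null values were 1149, 1612, 1164, 1425 and 1368 TPM. The null values lay inside the wild-type range, and both the lowest and the highest of the 10 values were wild-type. The means were 1479 ± 825.3 TPM (SD, n = 5) in the wild-type and 1344 ± 193.2 TPM (SD, n = 5) in the null mice. On the log2(TPM + 1) scale the difference, null minus wild-type, was 0.03 with a standard error of 0.319 and a 95% interval of -0.667 to 0.727 (adjusted p in limma 0.985, exact permutation p = 0.96). That mean difference on the log2 scale and the ratio of the TPM means (0.908) lay on opposite sides of no change.

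Prg3, which encodes a second major basic protein, lies next to Prg2 on chromosome 2 and had the same profile over the mice at a lower level. It measured 28.82, 50.3, 54.23, 77.23 and 126.1 TPM in the wild-type and 55.18, 74.22, 52.68, 55.23 and 71.02 TPM in the null mice. Wild-type mouse 1 was again the lowest and wild-type mouse 5 the highest, with every null mouse between them. The difference on the log2 scale was 0.03 (standard error 0.306, adjusted p in limma 0.986, exact permutation p = 0.889). No 31-base word of either gene's annotated transcripts occurs in a transcript of another gene, the other member of the pair included.

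Epx encodes eosinophil peroxidase, the enzyme that makes hypohalous acids in the granule. The wild-type values were 34.53, 71.12, 87.37, 88.88 and 181.3 TPM and the null values 85.21, 142.4, 81.3, 75.02 and 80.94 TPM. Mouse 2 of the null group stood above its 4 group mates, which lay within 75.02 to 85.21 TPM. The group means were nearly equal, at 92.65 ± 54.2 and 92.97 ± 27.85 TPM (SD, n = 5 each), and the log2 difference was 0.15 with a 95% interval of -0.605 to 0.913 (adjusted p in limma 0.928, exact permutation p = 0.81).

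The spread of these 3 granule genes was wider among the wild-type than among the null mice. On the log2 scale the SD of Prg2 was 0.819 in the wild-type and 0.206 in the null mice, that of Prg3 0.775 and 0.228, and that of Epx 0.844 and 0.37. The difference in spread was not tested, and it came from mice 1 and 5 at the ends of the wild-type range. Leaving out wild-type mouse 1 turned the direction of all 3 differences, to -0.25 for Prg2, -0.23 for Prg3 and -0.15 for Epx.

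The 2 eosinophil surface proteins were expressed at far lower levels. Il5ra, the ligand-binding chain of the interleukin 5 receptor, measured 1.44, 1.96, 1.26, 1.80 and 3.21 TPM in the wild-type and 1.26, 1.60, 1.70, 0.943 and 1.53 TPM in the null mice. All 5 null mice lay under the wild-type mean of 1.94 ± 0.766 TPM (SD, n = 5), but the groups overlapped. Il5ra was the only 1 of the 10 genes whose log2 difference was below 0, at -0.26 with a standard error of 0.188 and a 95% interval of -0.675 to 0.149 (adjusted p in limma 0.649, exact permutation p = 0.175). Without wild-type mouse 5 it was -0.12. Fold changes on the log2(TPM + 1) scale understate the change of genes as low as this one.

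Siglecf, a sialic acid-binding inhibitory receptor of eosinophils, measured 4.07, 5.81, 5.75, 5.52 and 7.27 TPM in the wild-type and 6.38, 7.85, 5.56, 5.32 and 4.14 TPM in the null mice. Its wild-type and null ranges nearly coincided. The log2 difference was 0.03 with a 95% interval of -0.34 to 0.401 (adjusted p in limma 0.973, exact permutation p = 0.825). Siglecf had 6 annotated transcripts with a value, of which the leading 1 carried 44.9% of the gene's TPM and a retained-intron transcript 25.7%. When only the leading transcript was used, the log2 difference turned to -0.50 (adjusted p 0.752). That transcript held 0.107 of 7.85 TPM in null mouse 2 and 0.576 of 4.14 TPM in null mouse 5, and their part in the turn was not tested.

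Mcpt8 encodes mast cell protease 8, a granzyme-like serine protease that in the mouse marks basophils despite its name. It measured 49.26, 57.64, 63.25, 79.33 and 63.62 TPM in wild-type mice 1 to 5 and 67.92, 99.67, 98.44, 74.63 and 63.67 TPM in null mice 1 to 5. All 5 null values lay above the wild-type mean, while wild-type mouse 4 exceeded 3 of the null mice, so the groups overlapped. The means were 62.6 ± 11.0 and 80.9 ± 17.06 TPM (SD, n = 5 each), a ratio of 1.29. Mcpt8 had the largest log2 difference of the 10 genes, 0.36 with a standard error of 0.157 and a 95% interval of 0.0136 to 0.698 (unadjusted p in limma 0.0428, adjusted p 0.425, exact permutation p = 0.0714). It did not pass the threshold after adjustment over all genes tested. Over the alternative analyses the difference stayed between 0.28 and 0.45 and its adjusted p between 0.29 and 0.688, and the unadjusted p was over 0.05 in 9 of them, among them those without wild-type mouse 1 (0.104), null mouse 2 (0.109) or null mouse 3 (0.108).

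Mcpt8 had a protein-coding transcript, which carried 66.7% of its TPM, and a transcript annotated as a target of nonsense-mediated decay, which carried 33.3%. The protein-coding transcript ran from 35.01 to 45.47 TPM in the wild-type and from 44.78 to 71.92 TPM in the null mice, so that 4 of the 5 null values exceeded every wild-type value. Taken alone, its log2 difference was 0.42 (unadjusted p in limma 0.01035, adjusted p 0.36). The other transcript averaged 22.1 and 25.6 TPM in the wild-type and null mice. TPM values do not show how surely a read was divided between these transcripts.

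Prss34 encodes mast cell protease 11, a tryptase-like serine protease made by basophils. It measured 51.52, 65.99, 65.56, 84.72 and 79.89 TPM in the wild-type and 82.93, 100.1, 101.2, 62.66 and 53.65 TPM in the null mice. The null mice fell on both sides of the wild-type range, with mice 2 and 3 above every wild-type mouse and mouse 5 near the lowest. The log2 difference was 0.18 with a 95% interval of -0.242 to 0.599 (adjusted p in limma 0.8, exact permutation p = 0.46). Without wild-type mouse 1 it was 0.078.

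Cpa3, Fcer1a and Ms4a2 are shared by basophils and mast cells. Cpa3, a carboxypeptidase stored in their granules, measured 10.08, 19.51, 19.07, 16.56 and 15.07 TPM in the wild-type and 17.78, 21.29, 18.18, 20.46 and 16.83 TPM in the null mice. The 5 null values lay above the wild-type mean of 16.1 ± 3.81 TPM (SD, n = 5), which wild-type mouse 1 pulled down. The log2 difference was 0.25 with a 95% interval of -0.101 to 0.603 (adjusted p in limma 0.602, exact permutation p = 0.175), and 0.10 without that mouse.

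Fcer1a and Ms4a2 encode the alpha and beta chains of the high-affinity IgE receptor, of which the alpha chain binds IgE. Fcer1a measured 4.01, 6.66, 6.86, 10.42 and 9.05 TPM in the wild-type and 9.33, 12.0, 8.47, 5.84 and 8.86 TPM in the null mice. Its log2 difference was 0.26 with a 95% interval of -0.233 to 0.756 (adjusted p in limma 0.729, exact permutation p = 0.341), and 0.089 without wild-type mouse 1. Ms4a2 measured 5.68, 5.83, 10.05, 9.17 and 7.13 TPM in the wild-type and 7.48, 11.32, 9.41, 10.28 and 6.70 TPM in the null mice. The log2 difference of Ms4a2 was 0.24 with a 95% interval of -0.163 to 0.635 (adjusted p in limma 0.684, exact permutation p = 0.254), and 0.15 without that mouse. For both chains the group ranges overlapped, and null mouse 2 was the highest of the 10 mice. The gamma chain Fcer1g, which several other receptors of myeloid cells also use, averaged 602.6 and 597.4 TPM in the wild-type and null mice.

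Of the 10 genes, 9 had a log2 difference above 0, with a median of 0.167, where 40% of all genes tested were above 0 and the median was -0.0452. One gene of the 10, Mcpt8, had an unadjusted p under 0.05, which compares with 11.6% of all genes tested in either direction and 4.28% in that direction, and 0 passed after adjustment. Wild-type and null values did not separate for any of the 10, where 1.94% of all genes tested had groups that did not overlap. Without wild-type mouse 1, 5 of the 10 differences were above 0 and their median was 0.0063. Without null mouse 2, 5 were above 0 and the median was 0.04.

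**Figure D2:**
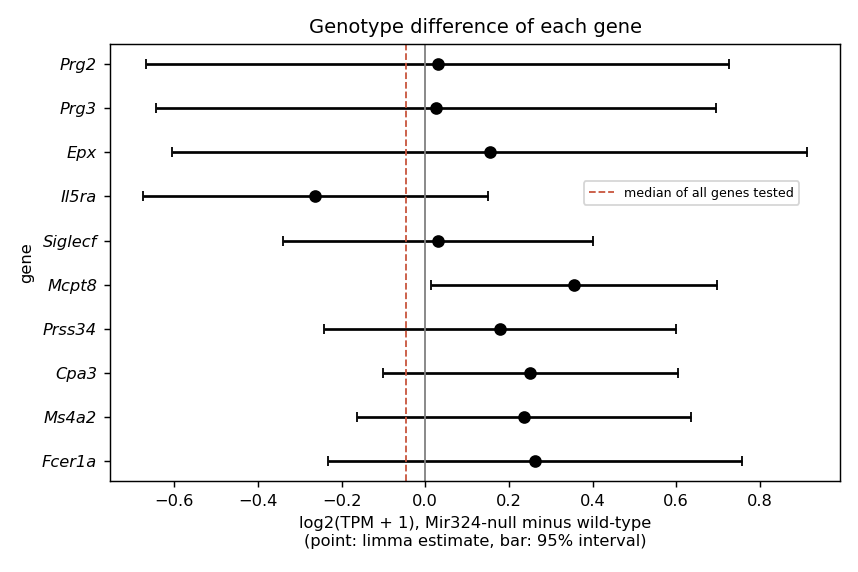
Difference in log2(TPM + 1), Mir324-null minus wild-type, of each of the 10 genes, with the limma estimate as a point, its 95% interval as a bar and the median of all genes tested (-0.0452) as a dashed line. The interval of Mcpt8 runs from 0.0136 to 0.698 and is the only 1 that does not include 0, before adjustment over all genes.

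The same mouse was lowest for most of the 10 genes, and the highest mouse differed between genes. Wild-type mouse 1 was the lowest of the 10 mice for 9 of the 10 genes, Il5ra being lowest in null mouse 4. Wild-type mouse 5 was the highest for Prg2, Prg3, Epx and Il5ra, while null mouse 2 was the highest for Siglecf, Mcpt8, Cpa3, Ms4a2 and Fcer1a and null mouse 3 for Prss34. The 5 eosinophil genes summed to 663.4 TPM in wild-type mouse 1 and 3090 TPM in wild-type mouse 5, with 1297 to 1838 TPM in the null mice. The sum of Mcpt8 and Prss34 ran from 100.8 to 164 TPM in the wild-type and from 117.3 to 199.8 TPM in the null mice. In wild-type mouse 1, which had the lowest sums, the 9 chondrocyte markers summed to 6054 TPM, against 1608 to 4337 TPM in the other mice, and the part of this in its low values was not tested.

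**Figure D3:**
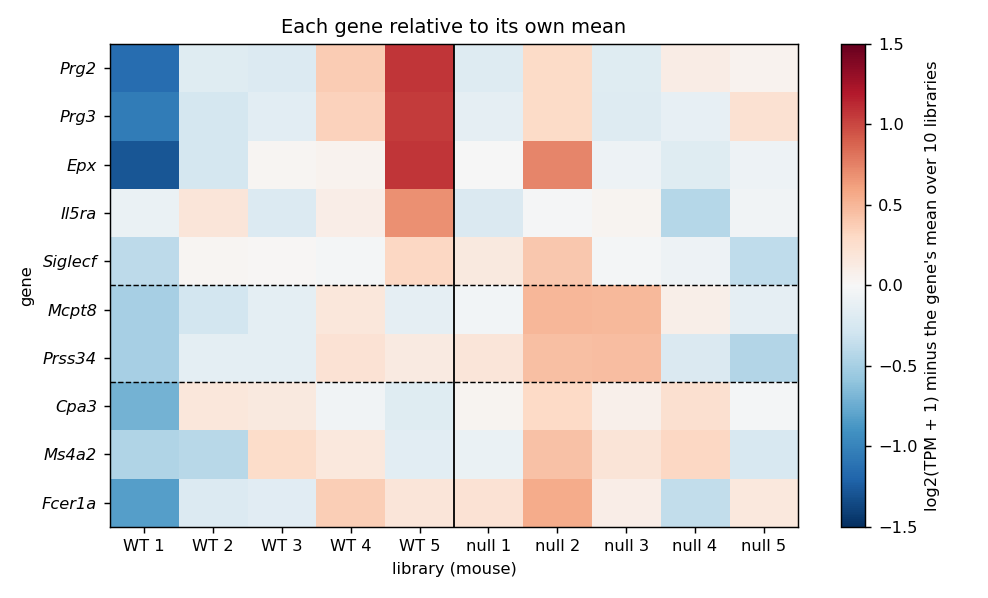
Each gene's log2(TPM + 1) minus that gene's mean over the 10 libraries, as colour from blue (lower) to red (higher), with wild-type mice to the left of the line and Mir324-null mice to the right. Wild-type mouse 1 is the lowest for 9 of the 10 genes, wild-type mouse 5 is the highest for the first 4 rows, and null mouse 2 is the highest for 5 genes.

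Prg2 and Prg3 kept a nearly fixed proportion from mouse to mouse. Prg2 was 19.3 to 25.8 times as abundant as Prg3 per length in each mouse, so that the highest ratio was 1.34 times the lowest while Prg2 itself varied 4.66-fold. The ratio of Prg2 to Epx ran from 11.3 to 19.4 (1.71-fold), and that of Mcpt8 to Prss34 from 0.796 to 1.19 (1.5-fold). In contrast, Prg2 was 11.8 to 43.6 times as abundant as Mcpt8, and the highest ratio, in wild-type mouse 5, lay far above the 21.7 of the next mouse.

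Correlations of log2(TPM + 1) over the 10 mice were computed for all 45 pairs of the 10 genes, with permutation p-values adjusted over the 45. Prg2 and Prg3 had a Pearson r of 0.98 (permutation p = 7e-05, adjusted p 0.00315) and a Spearman rho of 0.879 (permutation p = 0.00134, adjusted p 0.0603), and r was 0.873 without wild-type mice 1 and 5, the 2 mice farthest from the median of Prg2. Prg2 and Epx had an r of 0.919 (permutation p = 0.00184, adjusted p 0.0276) and a rho of 0.6 (permutation p = 0.0743, adjusted p 0.239), and the r of 0.517 without the same 2 mice shows that this relation rests largely on them. Mcpt8 and Prss34 had an r of 0.834 (permutation p = 0.00251, adjusted p 0.0282) and a rho of 0.745 (permutation p = 0.0169, adjusted p 0.153), with 0.625 without null mice 2 and 3. Mcpt8 and Ms4a2 had an r of 0.804 (permutation p = 0.0045, adjusted p 0.0405) and a rho of 0.745 (permutation p = 0.017, adjusted p 0.153), with 0.774 without these 2 mice.

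Prg2 and Mcpt8, an eosinophil and a basophil granule gene, had an r of 0.399 (permutation p = 0.253, adjusted p 0.325) and a rho of 0.479 (permutation p = 0.168, adjusted p 0.36), and r was 0.00531 without wild-type mouse 1. Over the 10 pairs of eosinophil genes the median r was 0.632, and over the 10 pairs of basophil and mast cell genes it was also near 0.63. The 25 pairs that join an eosinophil gene to a basophil or mast cell gene had a median r of 0.451 and ran from -0.33 (Il5ra and Ms4a2) to 0.794 (Epx and Fcer1a). Of the 45 pairs, 6 had an adjusted p under 0.05 for r, 4 among eosinophil genes, 2 among basophil and mast cell genes and 0 across, and 0 of them had one for rho. Without wild-type mouse 1 the medians for eosinophil, basophil and mast cell, and joining pairs were 0.73, 0.463 and 0.151. Without the 2 mice farthest from the median of the first gene of each pair they were 0.174, 0.526 and 0.235, so the order of the eosinophil and the joining pairs depended on the mice left out. The difference between these medians was not tested, since the pairs share genes and mice.

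**Figure D4:**
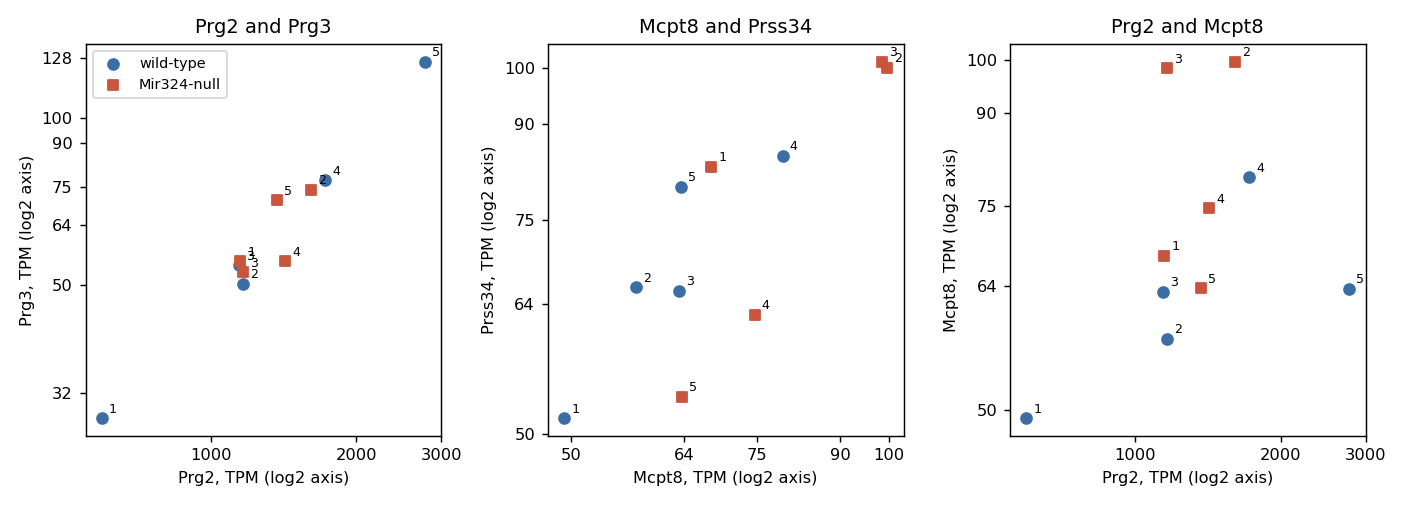
TPM of pairs of genes in each mouse on log2 axes, with wild-type mice as blue circles and Mir324-null mice as red squares numbered by replicate. Prg2 and Prg3 lie along 1 line (r = 0.98), Mcpt8 and Prss34 scatter around one (r = 0.834), and wild-type mouse 5 has the most Prg2 (2772 TPM) with 63.62 TPM of Mcpt8.

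Prg3 is shown by its promoter because its values followed those of Prg2 from mouse to mouse, and Prss34, Cpa3 and Ms4a2 because they stand for the basophil and the shared genes. Gata1 and Gata2, transcription factors of these lineages, bind GATA motifs, and the letters GATAA were searched on both strands in the 250 bases before the start of each gene, from RefSeq promoter sequences on GRCm38.p6. The motif was present in 6 of the 9 genes with a sequence (Prg3, Il5ra, Prss34, Cpa3, Ms4a2 and Fcer1a) and in 6221 of 27025 promoters of all genes (23%). Epx, Siglecf and Mcpt8 had no match in this window, and Prg2 had no entry. For Mcpt8 the window (chr14:56085198-56085447, minus strand) starts from the RefSeq start, which lies inside the gene as given above. The sequences run 5′ to 3′ on the strand of the gene and end at the base before its start, with each match in capitals (TTATC is the same motif on the other strand). They lie at chr2:84987965-84988214 on the plus strand for Prg3, chr17:25298144-25298393 on the plus strand for Prss34, chr3:20242182-20242431 on the minus strand for Cpa3 and chr19:11623720-11623969 on the minus strand for Ms4a2.
Prg3: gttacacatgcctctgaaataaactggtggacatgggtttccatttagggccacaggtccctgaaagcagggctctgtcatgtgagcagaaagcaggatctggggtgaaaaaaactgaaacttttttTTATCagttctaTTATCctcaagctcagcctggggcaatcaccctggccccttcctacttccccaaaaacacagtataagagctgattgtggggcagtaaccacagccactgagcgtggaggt
Prss34: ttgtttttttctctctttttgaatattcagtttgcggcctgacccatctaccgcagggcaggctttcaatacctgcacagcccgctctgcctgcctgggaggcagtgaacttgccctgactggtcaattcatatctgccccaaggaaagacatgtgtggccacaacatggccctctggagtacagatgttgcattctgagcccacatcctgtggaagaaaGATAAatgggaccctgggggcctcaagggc
Cpa3: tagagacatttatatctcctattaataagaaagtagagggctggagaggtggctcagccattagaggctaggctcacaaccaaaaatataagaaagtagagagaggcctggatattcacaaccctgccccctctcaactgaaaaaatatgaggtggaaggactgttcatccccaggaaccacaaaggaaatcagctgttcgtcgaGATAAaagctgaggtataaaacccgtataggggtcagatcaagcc
Ms4a2: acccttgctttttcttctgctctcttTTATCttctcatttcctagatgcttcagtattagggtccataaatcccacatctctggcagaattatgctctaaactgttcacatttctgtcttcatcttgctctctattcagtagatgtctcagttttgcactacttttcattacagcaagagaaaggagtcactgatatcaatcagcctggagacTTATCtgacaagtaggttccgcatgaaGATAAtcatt

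The motif nearest to the gene start began 111 bases before it in Prg3, 30 in Prss34, 45 in Cpa3 and 10 in Ms4a2, which held 3 matches. The letters TTGCNNAA, a core of the motif of C/EBP factors, were present in 1 of the 9 promoters, that of Fcer1a, and in 9.55% of all promoters. A match in letters is a description and no evidence that a factor binds there.

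Mir324 encodes both mature strands of miR-324, and sites for their seeds (bases 2 to 8, in capitals) were searched in 1 annotated 3′ UTR of each of the 10 genes, the longest. Neither strand was measured in these libraries. The mature sequences from RefSeq lie on the plus strand of chromosome 11.
mmu-miR-324-5p: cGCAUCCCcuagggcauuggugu
mmu-miR-324-3p: cCACUGCCccaggugcugcu
Il5ra had a site for the first (GGGATGC) and Ms4a2 a site for the second (GGCAGTG), and no site was found in the 1 UTR searched for each of the other 8 genes. For Siglecf that UTR belongs to a transcript with 25.0% of the gene's TPM and not to the leading transcript. Of the 12601 genes tested with an annotated 3′ UTR, 1071 (8.5%) had the first site and 1939 (15.4%) the second. These shares do not allow for length, and a longer UTR has more places for a match. The UTR searched had 2025 bases in Il5ra and 1950 in Ms4a2, against 82 (Mcpt8) to 757 (Siglecf) in the other 8 genes. The sites are shown with 10 bases on either side, and both lie in the last exon, in the 3′ UTR, on the minus strand of GRCm38, at chr6:106712227-106712253 in exon 13 of 13 of Il5ra and at chr19:11615720-11615746 in exon 6 of 6 of Ms4a2.
Il5ra: accagcacctGGGATGCacagatggga
Ms4a2: tgtatcttcaGGCAGTGtttatccagt
The Il5ra transcript that was searched, in which this site was found, averaged 1.06 TPM in the wild-type and 1.08 TPM in the null mice. The lower gene value of the null mice lay in another Il5ra transcript, which averaged 0.801 and 0.248 TPM. That transcript was neither tested nor searched for the site, so whether it carries the site is unknown. TPM values do not show how surely reads of so low a gene were divided between its transcripts. The Ms4a2 transcript in which the site was found carried 56.7% of the gene's TPM and averaged 4.11 and 5.31 TPM. The other Ms4a2 transcripts were not searched. Neither gene passed the threshold after adjustment.

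Of the 6 other eosinophil genes, the 3 most abundant had profiles close to that of Prg2. The eosinophil-associated ribonucleases Ear1, Ear2 and Ear6 ran from 150.7 to 683.6, from 145 to 557.1 and from 101.5 to 497.1 TPM over the 10 mice, each lowest in wild-type mouse 1 and highest in wild-type mouse 5. Among all genes tested, the 5 whose log2 values correlated most with Prg2 over the 10 mice were Prg3 (r = 0.98), Ear2 (0.968), Ear1 (0.962), Ear6 (0.961) and Lrrn3 (0.93), and Epx came next at 0.919. This ranking was not repeated without wild-type mouse 1. Alox15 (mean 21.8 TPM, r = 0.755, highest in null mouse 2) and Ccr3 (mean 10.2 TPM, r = 0.509, highest in wild-type mouse 3), named after their values were seen, were less alike. Ear1 and Ear2 share 73.6% and 60.5% of their 31-base words with other genes, largely of the same family, so their separate levels are uncertain. Of the 6 other eosinophil genes 5 were tested, 3 were above 0 and 2 below, with a median log2 difference of 0.0348 and 0 at an unadjusted p under 0.05. Ear10 did not exceed 0.370 TPM.

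The profiles most like the leading basophil and shared genes were of mixed kinds. For Prss34 the 5 nearest were Igkv4-55 (r = 0.936), Hyal3 (0.926), Gm49510 (0.921), Ldhc (0.917) and Dcun1d3 (0.885). Mcpt8 ranked 24 for Prss34, Fcer1a 151, Ms4a2 1000 and Cpa3 2255. For Cpa3 the 5 nearest were Specc1 (0.924), Rsad2 (0.912), Tgm1 (0.907), Xpo7 (0.906) and Trim58 (0.905). The other basophil and shared genes ranked far lower for Cpa3, with Ms4a2 at 501, Mcpt8 at 586, Fcer1a at 941 and Prss34 at 1339. These are descriptions over 10 mice, picked as the highest of all genes tested and not repeated without wild-type mouse 1.

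Most other basophil genes were present, some at a low level, and the defining mast cell proteases were near 0. Hdc, the histamine-forming enzyme, averaged 49.4 and 55.8 TPM in the wild-type and null mice, the interleukin 3 receptor chain Il3ra 16.1 and 18.8 TPM, and the integrin Itga2 4.90 and 5.10 TPM. Of the 6 other basophil genes 5 were tested, 3 above 0 and 2 below, with a median log2 difference of 0.0443 and 0 at an unadjusted p under 0.05, and Il13 was listed at 0 in 9 of 10 libraries. The 2 below 0, named after their values were seen, were low. Cd200r3 averaged 2.94 and 2.71 TPM in the wild-type and null mice (log2 difference -0.10), and Il4 averaged 1.346 and 1.255 TPM (-0.055). Of the 12 other mast cell genes only Kit, Hpgds and Slc18a2 reached 1 TPM on average, 2 above 0 and 1 below, with 0 at an unadjusted p under 0.05 in limma. Slc18a2, the vesicular monoamine transporter, averaged 2.78 ± 0.0636 and 3.39 ± 0.693 TPM (SD, n = 5 each), with all 5 null mice above the wild-type mean (log2 difference 0.20, unadjusted p in limma 0.152, adjusted p 0.61, exact permutation p = 0.0159). Hpgds, the 1 below 0, averaged 11.99 ± 2.11 and 9.77 ± 2.33 TPM (SD, n = 5 each; log2 difference -0.28, unadjusted p in limma 0.112, adjusted p 0.552, exact permutation p = 0.167). The chymase Cma1 did not exceed 1.27 TPM, the tryptase Tpsb2 0.767 TPM and the protease Mcpt4 0.524 TPM, while the tryptase Tpsab1 and the receptor Mrgprb2 were listed at 0 in all 10 libraries. Mcpt1, Mcpt2, Tph1 and Mrgprb1 did not exceed 0.361 TPM. Kit (13.5 and 14.3 TPM), also a receptor of blood progenitors, is not particular to mast cells.

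**Figure D5:**
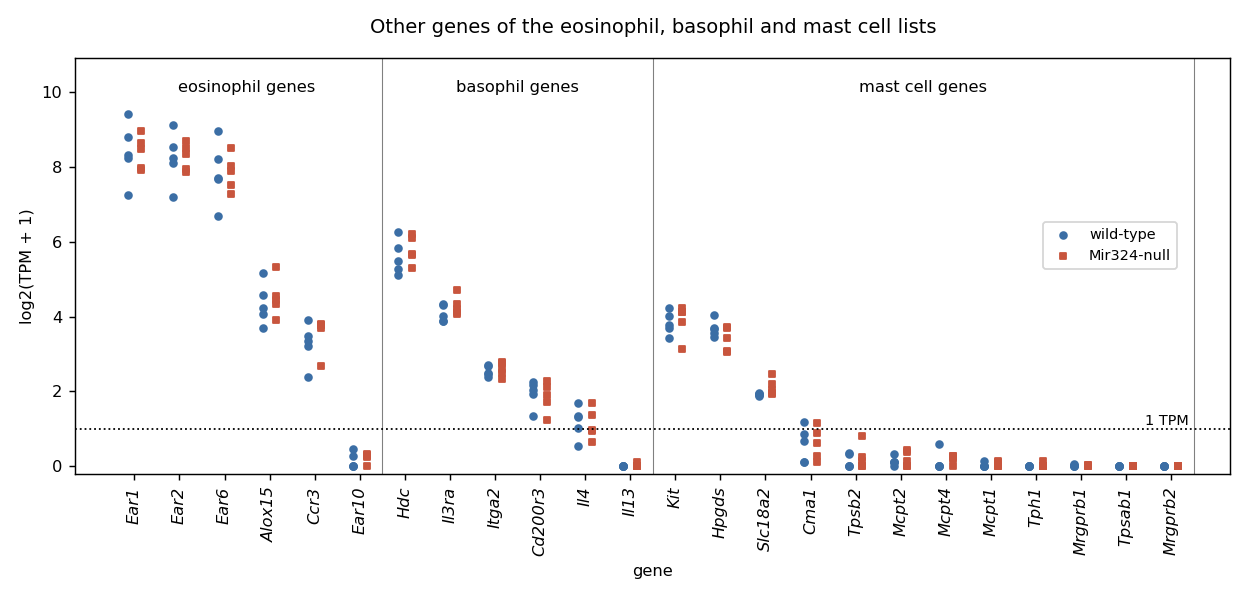
Log2(TPM + 1) of the other genes of the eosinophil, basophil and mast cell lists in each mouse, with wild-type mice as blue circles, Mir324-null mice as red squares and 1 TPM as a dotted line. Ear1, Ear2 and Ear6 lie highest, and the mast cell proteases Tpsb2, Mcpt2, Mcpt4 and Mcpt1 lie under the line in every mouse.

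Downstream of the IgE receptor, all 8 signalling genes listed were tested, 4 above 0 and 4 below, with a median log2 difference of 0.0186. The kinases Lyn and Syk averaged 77.7 and 80.0 TPM, and 73.2 and 72.0 TPM, in the wild-type and null mice. The adaptor Lat was the only 1 of the 8 with an unadjusted p under 0.05, at 20.7 ± 2.77 and 28.4 ± 4.96 TPM (SD, n = 5 each) and a log2 difference of 0.43 (unadjusted p in limma 0.0094, adjusted p 0.324, exact permutation p = 0.0317). Of all genes tested, 11.6% had such an unadjusted p in either direction. Lat did not pass after adjustment and is also made by T cells and platelets.

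Of the ligands listed, 4 of 5 averaged under 1 TPM. Il3 was listed at 0 in all 10 libraries, Il5 had a value only in wild-type mouse 1 (0.218 TPM), Csf2 did not exceed 0.259 TPM and Il33 did not exceed 1.28 TPM, while Tslp ran from 0.499 to 2.88 TPM with its highest value in wild-type mouse 1. Their receptors were present, with Csf2ra at 81.9 and 87.9 TPM in the wild-type and null mice, Crlf2 at 37.8 and 34.0 TPM and the shared beta chain Csf2rb at 34.1 and 33.8 TPM. Of the 10 genes of ligands and receptors 6 were tested, 3 above 0 and 3 below, with a median of -0.0086. Il1rl1, the interleukin 33 receptor, was the only 1 with an unadjusted p under 0.05, at 6.49 ± 2.95 and 9.15 ± 1.72 TPM (SD, n = 5 each), a log2 difference of 0.50 (unadjusted p in limma 0.0485, adjusted p 0.427, exact permutation p = 0.0873). The share of all genes tested with such an unadjusted p was 11.6%.

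All 10 transcription factors listed were tested, 6 above 0 and 4 below, with a median log2 difference of 0.0922. Spi1 was the most abundant at 172.5 and 180.9 TPM in the wild-type and null mice, followed by Cebpe, which is needed for granule genes, at 105.7 and 108.2 TPM. Gata1, which eosinophils, basophils, mast cells, erythroid cells and megakaryocytes all use, averaged 47.3 ± 9.97 TPM in the wild-type and 68.5 ± 5.91 TPM in the null mice (SD, n = 5 each), and its groups did not overlap. The log2 difference of Gata1 was 0.55 with a standard error of 0.139 (unadjusted p in limma 0.0021, adjusted p 0.283), and the exact permutation p of 0.00794 is the smallest that 5 against 5 mice can give. Groups did not overlap in 1.94% of all genes tested, and the adjusted exact permutation p of Gata1 was 0.399. Its cofactor Zfpm1 averaged 87.8 ± 24.69 and 123.2 ± 20.93 TPM (SD, n = 5 each; log2 difference 0.51, unadjusted p in limma 0.0135, adjusted p 0.338, exact permutation p = 0.0476). Gata2, named after its values were seen, averaged 11.3 and 15.2 TPM (log2 difference 0.43, adjusted p in limma 0.458, exact permutation p = 0.0952). None of the 3 passed after adjustment.

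Markers of other cells that use Gata1 had differences of the same sign. Of all genes tested, 40% were above 0 and 4.28% were above 0 at an unadjusted p under 0.05 in limma. Below 0 at such a p were 1011 of the 13841 genes tested, and these shares moved with the scaling. All 6 erythroid genes tested had a log2 difference above 0, 5 of them at an unadjusted p under 0.05. Their summed level ran from 75180 to 133300 TPM in the wild-type and from 107200 to 176400 TPM in the null mice. The 5 megakaryocyte genes were also above 0, all at an unadjusted p under 0.05, with sums between 1110 and 1687 TPM for wild-type and between 1293 and 2683 TPM for null mice. The 8 neutrophil genes had a median of -0.0727, with 0 at an unadjusted p under 0.05 and sums of 56510 to 114500 and 56720 to 116000 TPM. No gene of these 3 lists passed after adjustment, and their part in the values of Gata1, Zfpm1, Lat and Mcpt8 was not tested. In contrast, all 8 osteoblast and osteocyte genes were below 0, with a median of -0.902 and 7 at an unadjusted p under 0.05. Their sum averaged 10680 TPM in the wild-type and 5228 TPM in the null mice. All 8 B lineage genes were below 0 (median -0.445), as were 6 of 7 chondrocyte genes tested (median -0.655). Each list had 4 at such a p. None passed after adjustment, and the part of these lists in the values of the eosinophil, basophil and mast cell genes was not tested. With a neutrophil score as a covariate the Mcpt8 difference was 0.36 (unadjusted p in limma 0.0515).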

How the data were processed

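The authors deposited 1 table of TPM values per transcript and mouse, without read counts. Per the submitters' processing notes, kallisto and DESeq2 were used and GRCh38 is named, a human build, although the transcript identifiers are mouse; the kallisto version and index were not given in the sources used here. Of 116912 transcripts, 115440 matched GENCODE M21 (GRCm38) and were summed to 35705 genes, and the 1472 others held 0.275% to 0.356% of a library's TPM. No column belonged to another sample (0). The 13841 genes that averaged 1 TPM or more were tested on log2(TPM + 1) with limma 3.58.1 in R 4.3.3 (eBayes with trend, two-sided, no covariate, Benjamini-Hochberg over all genes tested, threshold 0.05), after the fit had been tested on simulated data. A two-sided exact permutation test over the 252 ways to divide 10 mice into 5 and 5 was run per gene (smallest p 0.00794), and correlations used 100000 resamples. Because each library has the same TPM total, abundant transcripts lower the values of the rest.

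All 10 genes are named with every value. From each other list the 3 most abundant genes, defining genes under 1 TPM and genes with an unadjusted p under 0.05 are named, together with the 5 nearest profiles of each group's leading gene. The genes and lists were chosen with earlier results of these data known. Alternatives were the pseudocount (0.1), the filter (none or 5 TPM), 3 other scalings, the leading transcript only, limma without trend, a neutrophil covariate, a replicate block and leaving out each mouse.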

Additional observations from a re-analysis of the deposited data

Results flagged for a closer look

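Epx in Mir324-null mouse 2 was 142.4 TPM, far above the other 4 null mice at 75.02 to 85.21 TPM. The gap to the nearest of them was 0.849 of the group's whole range, above Dixon's critical value of 0.71 for 5 samples. This was the only 1 of 20 groups examined (each of the 10 genes in each genotype) to exceed it, and chance alone is expected to do so in about 5% of groups.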

How the results depend on the processing

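No gene passed an adjusted p of 0.05 in limma under any setting that kept all 10 mice (0 in each), nor did the exact permutation test call any after adjustment (0, with 1461 genes at an unadjusted p under 0.05). Leaving out 1 mouse at a time gave 0 to 1 such genes: Gm37419 without wild-type mouse 3, Igkv2-109 without wild-type mouse 4 and Rpl30-ps9 without null mouse 1, named after their values were seen. Of the 10 genes, 1 had an unadjusted p under 0.05, and 0 had one in limma without the trend or with the neutrophil covariate; leaving out 1 mouse at a time gave 0 to 1. Log2 differences with 1 mouse left out ran from -0.25 to 0.30 for Prg2, from -0.23 to 0.29 for Prg3, from -0.15 to 0.44 for Epx and from -0.068 to 0.13 for Siglecf, so their sign depended on single mice. With the leading transcript only, Il5ra turned to 0.049 and Siglecf to -0.50. The other 6 genes kept their sign in every other setting in which they were tested, and Il5ra was not tested at a mean of at least 5 TPM. A replicate block gave 0 genes with an adjusted p under 0.05, 1 of the 10 genes with an unadjusted one and 1168 genes in all (1603 without the block). Correlations of -0.144 to 0.0564 between the deviations of same-numbered mice did not pair them. The number of libraries, 5 per genotype, and the unknown depth limit these values.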

Other observations

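Set against the neutrophil gene S100a8, Prg2 varied 2.36-fold over the 10 mice, less than its 4.66-fold range in TPM, but within the null mice the ratio varied more than the TPM (1149 to 1612). The ratio of Prg2 to S100a8 ran from 0.0306 to 0.0676 in the wild-type and from 0.0286 to 0.0649 in the null mice, with medians of 0.0467 and 0.0579. The ratio of Mcpt8 to Elane, a protease of neutrophil precursors, ran from 0.0586 to 0.129 in the wild-type and from 0.0639 to 0.153 in the null mice. The lowest of the 10 Prg2 ratios was in null mouse 1, not in wild-type mouse 1. A minor second transcript of Fcer1a reached 3.16 TPM in wild-type mouse 5 and 0.352 TPM in wild-type mouse 4, and was at or near 0 in the other 8 mice.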
